A study of Rattus norvegicus with 33 samples.

Results

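The smooth muscle miRNAs rno-miR-143-3p and rno-miR-145-5p, here miR-143-3p and miR-145-5p, are 2 of the 462 mature miRNAs counted in rat plasma, and were taken by name, as a pair transcribed together, when the wide spread of miR-143-3p between vehicle libraries was already known. They were read from the count tables of all 6 models of liver injury, in 5 vehicle and 24 treated libraries. Both are among the 264 miRNAs listed in every table, and both were detected in all 29 libraries. Male Sprague-Dawley rats, obtained at 6 weeks of age and kept 1 week before dosing, received a toxicant by stomach tube, and small RNA was sequenced from 200 µL of EDTA plasma on a MiSeq. The hepatocellular models were acetaminophen (APAP, 1500 mg/kg, after a 12 h fast) and thioacetamide (TAA, 100 mg/kg), each in 0.5% carboxymethylcellulose (CMC) and sampled at 3, 6, 12 and 24 h. The cholestasis models, sampled also at 48 h, were 4,4'-methylenedianiline (MDA, 250 mg/kg in CMC) and α-naphthylisothiocyanate (ANIT, 150 mg/kg in corn oil). The steatosis models were daily carbon tetrachloride (CCl4, 300 mg/kg, Days 1, 3 and 5) and daily dexamethasone (DEX, 15 mg/kg, Days 1, 2 and 3), both in corn oil. Vehicle rats received the solvent alone. Their libraries are labelled 0 h or Day 0, so no vehicle library is matched in time to a treated one, and CCl4 and DEX share a vehicle library.

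miR-143 and miR-145 are cut from the same primary transcript and are best known as miRNAs of smooth muscle, in the walls of blood vessels, gut and airways. In mice, serum response factor and myocardin drive their transcription, and they favour the contractile state of the muscle cell, miR-145 in part by repressing Klf4. Fibroblasts, pericytes and hepatic stellate cells also express them, while plasma collects miRNAs from many tissues, so their source cannot be read from a plasma level. Neither can more releasing cells be told apart from more miRNA released per cell.

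The mature sequences are shown because they set which reads are counted for each miRNA and which messages each can pair with. They are given 5′ to 3′ from RefSeq (build GRCr8), with the seed, bases 2 to 8, in capitals:
miR-143-3p: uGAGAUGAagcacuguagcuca
miR-145-5p: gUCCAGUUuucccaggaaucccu
The seeds differ, and each belongs to no other mature miRNA among the 724 in the RefSeq table. In GRCr8 both genes lie on the minus strand of chromosome 18, with miR-143-3p at chr18:57371373-57371394 and miR-145-5p at chr18:57370033-57370055. Their hairpins are 105 and 88 bases long and 1278 bases apart, inside the long noncoding RNA gene Carmn. The opposite arms of the hairpins were also counted:
miR-143-5p: gGUGCAGUgcugcaucucugg
miR-145-3p: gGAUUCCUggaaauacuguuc

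Each group is 1 column of counts, so no value below has a replicate error within its group. Groups had 5 rats, and the sources used here do not give whether the plasma of these was pooled for sequencing. The libraries held between 14176 miRNA reads (MDA vehicle) and 383330 (TAA 24 h). The 33 labelled samples give 29 libraries because 4 ANIT groups with 2 labelled samples each have 1 column. Levels are given as a share of all miRNA reads with the exact 95% Clopper-Pearson interval, which covers counting error only, since PCR copies are not independent molecules. The hepatocyte miRNAs miR-122-5p, miR-192-5p and miR-194-5p together took 1.57% to 4.14% of vehicle reads and 6.33% to 71.2% of treated reads, which lowers every other share. Ratios to a vehicle library were therefore taken on counts scaled by TMM within each model, a factor that assumes most miRNAs to be level between libraries. No spike-in was added, so neither scale gives an amount per volume of plasma.

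In vehicle plasma, miR-143-3p was abundant and differed widely between libraries. It took 9.58% of reads in the MDA vehicle (9.10% to 10.1%), 2.65% in the APAP vehicle (2.51% to 2.80%), 1.90% in the TAA vehicle (1.75% to 2.05%), 1.69% in the ANIT vehicle (1.58% to 1.81%) and 1.25% in the CCl4/DEX vehicle (1.21% to 1.30%). The mean was 3.415% ± 3.48 (SD, n = 5 vehicle libraries). The MDA vehicle stood apart above the other four, and their own range was 2.12-fold, with a mean of 1.87% ± 0.586 (SD, n = 4). Between the highest and the lowest vehicle library the share of miR-143-3p differed 7.64-fold, the widest range among the 68 miRNAs with at least 10 reads in all 5, whose median range was 2.08-fold. With 1 TMM over all libraries the range was 5.05-fold, position 6 of 68, with a median of 2.19-fold. On that scale the level of miR-143-3p in the MDA vehicle was 4.48 times the median of the other vehicles. The next miRNA in that order, miR-140-5p, an miRNA of cartilage, was at 1.72 times.

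miR-145-5p showed no such excess in the MDA vehicle. It was a scarce miRNA in the same plasma, with 29, 19, 12, 7 and 76 reads in the APAP, TAA, ANIT, MDA and CCl4/DEX vehicles. These are shares of 0.0615%, 0.0575%, 0.0238%, 0.0494% and 0.0337%, with a mean of 0.0452% ± 0.0160 (SD, n = 5) and a range of 2.58-fold. The MDA vehicle lay inside that range, with an interval from 0.0199% to 0.102% that spans the other four shares. The 3 CMC vehicles were higher than the 2 corn oil vehicles for both miRNAs, from 1.90% to 9.58% against 1.25% to 1.69% for miR-143-3p and from 0.0494% to 0.0615% against 0.0238% to 0.0337% for miR-145-5p. The 2-sided exact permutation test gave p = 0.2 for each, the smallest p that 3 libraries against 2 allow. Solvent, dosing volume (10 mL/kg with CMC and 5 mL/kg with corn oil) and model cannot be told apart here.

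The striated muscle miRNAs miR-1-3p, miR-133a-3p, miR-133b-3p and miR-206-3p, which mark skeletal and heart muscle, summed to 0.132% to 0.653% of reads over the vehicle libraries. The list of 20 other smooth muscle and mesenchymal miRNAs, including the opposite arms, summed to 4.60% in the MDA vehicle and 4.03% to 4.91% in the other four. By this sum the MDA vehicle lay within the range of the others. Single members went both ways with 1 TMM over all libraries. miR-152-3p was highest in the MDA vehicle, at 1.38 times the median of the other vehicles. So were the scarce miR-199a-5p (2.00 times), miR-10b-5p (1.88 times) and miR-143-5p (5.85 times, from 1 read). miR-22-3p (0.427 times), miR-125b-5p (0.452 times) and miR-214-3p (0.565 times) were below that median. The MDA vehicle held the fewest reads of any library and 165 detected miRNAs. The part of depth in its miR-143-3p level was not tested.

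**Figure D1:**
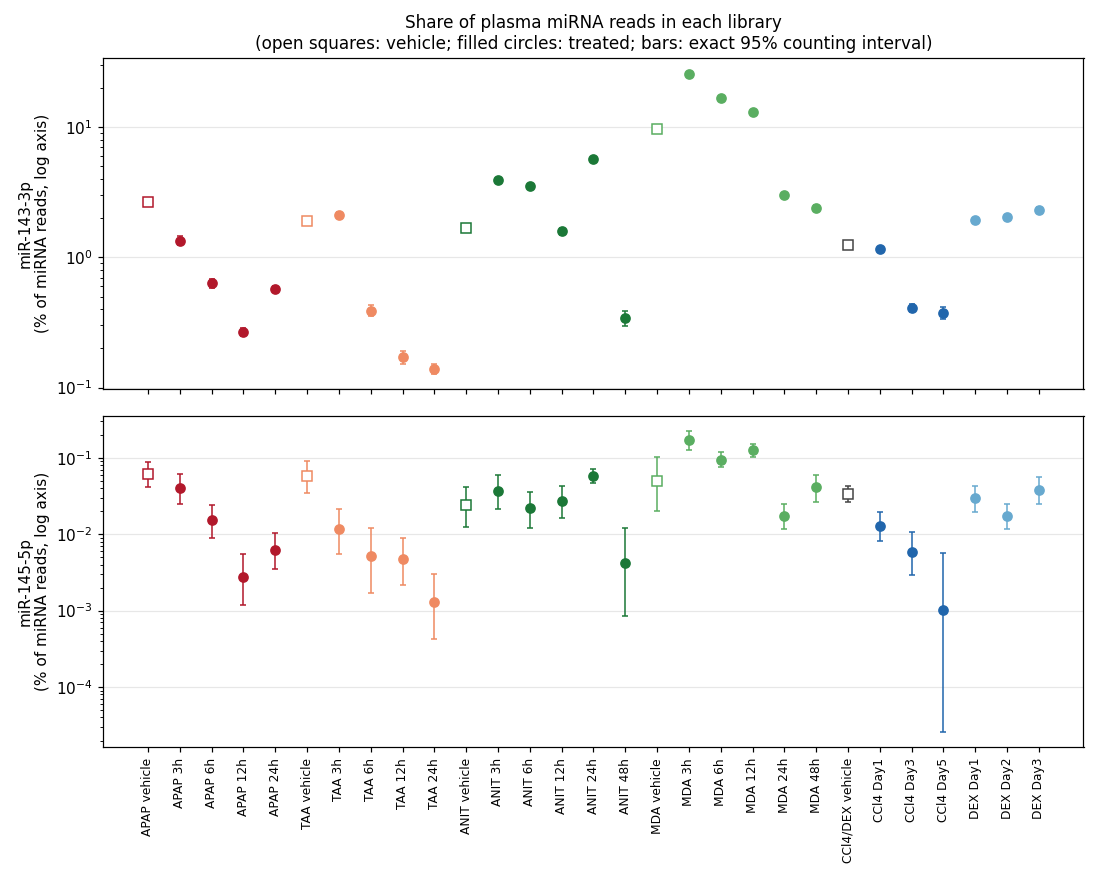
Share of plasma miRNA reads (%, log axis) taken by miR-143-3p (upper panel) and miR-145-5p (lower panel) in each of 29 libraries, with exact 95% counting intervals; open squares are vehicle and filled circles treated libraries. MDA 3, 6 and 12 h are the highest treated libraries for both, and the MDA vehicle is high for miR-143-3p (9.58%) but not for miR-145-5p (0.0494%).

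After treatment, the share of miR-143-3p ran from 0.139% (TAA 24 h) to 25.5% (MDA 3 h), with a median of 1.75% over 24 treated libraries. Of these, 3 were above every vehicle library, 10 below every vehicle library and 11 between. The 3 above were MDA 3, 6 and 12 h, and at MDA 3 h no other miRNA had more reads. In the order of all 29 libraries, counting intervals of 13 of the 28 neighbouring pairs overlapped, most of them between 1.59% and 2.65%, where vehicle and treated libraries mixed. The share of miR-145-5p ran from 0.00102% (CCl4 Day 5, 1 read) to 0.170% (MDA 3 h, 52 reads), with a median of 0.0172%. Again 3 treated libraries were above every vehicle, the same MDA time points, and 14 were below every vehicle. These positions are on shares, which fall for most miRNAs where hepatocyte miRNAs rise. By total reads, the median log2 ratio to the own vehicle over all measured miRNAs ran from −2.46 (APAP 12 h) to 0.0073 (DEX Day 1). How many other miRNAs fell below every vehicle by share was not counted. For miR-145-5p the intervals of all 28 neighbouring pairs overlapped, so only distant positions in its order are separated by counting error.

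Against its own vehicle, a miRNA is called here higher or lower where the TMM-scaled ratio is at least 2 or at most 0.5 and its 95% counting interval excludes 1. It counts as measured in a model where some library holds at least 20 reads. With 1 library per group this is a rule of size with no p-value. miR-143-3p was called higher in 9 and lower in 3 of 24 treated libraries. Over all measured miRNAs and libraries, 20.1% of comparisons were called higher and 20.5% lower. Scaling by total miRNA reads gave 4 higher and 11 lower, and scaling by reads other than the 3 hepatocyte miRNAs gave 7 and 10. Going from TMM to total reads shifts every log2 ratio of a library by the same amount, from −0.0030 (ANIT 3 h) to −2.40 (APAP 12 h). No call of miR-143-3p turned its direction under any other scaling tried.

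In the MDA model, a toxicant of the bile duct lining, miR-143-3p was above its vehicle at 3, 6 and 12 h, and its position at 24 and 48 h depended on the scaling or the vehicle. The shares were 25.5% at 3 h, 16.7% at 6 h, 13.1% at 12 h, 3.03% at 24 h and 2.41% at 48 h, against 9.58% in the vehicle. The TMM ratios were 2.77 at 3 h (2.61 to 2.94), 2.63 at 6 h (2.49 to 2.78) and 2.26 at 12 h (2.13 to 2.39), called higher. At 24 h it was 1.31-fold lower (1.23 to 1.39), not called, and at 48 h 2.01-fold lower (1.87 to 2.17), a call that lies at the threshold, where 29.5% of all measured miRNAs were called lower. At 24 h the direction turned with the scaling, since with 1 TMM over all libraries the library was 1.21 times its own vehicle and 3.94 to 6.12 times the other four. The 48 h direction rested on the MDA vehicle. Against the other four vehicles, with 1 TMM over all libraries, the 48 h library was 2.01 to 3.11 times as high and was called higher each time, while the 3, 6 and 12 h libraries were higher against all 5 vehicles, by 3.95-fold or more.

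miR-145-5p was also high in the early MDA libraries. It had 52, 84, 111, 30 and 26 reads at 3, 6, 12, 24 and 48 h against 7 in the vehicle, or 0.170%, 0.0948%, 0.125%, 0.0172% and 0.0409% against 0.0494% of reads. The ratios of 3.59 at 3 h (1.62 to 9.36), 2.90 at 6 h (1.35 to 7.44) and 4.17 at 12 h (1.96 to 10.6) were called higher, and those of 24 and 48 h were not called. With 1 TMM over all libraries, these libraries were higher against each of the 5 vehicles, by at least 3.48 times, so for the early MDA time points the calls of both miRNAs do not turn on the choice of vehicle. Among all miRNAs, 16.8%, 18.9% and 20% were called higher than the MDA vehicle at 3, 6 and 12 h, and 10.5% of all comparisons were called higher against all 5 vehicles. The same early MDA libraries held 12.6% to 37.0% hepatocyte and 0.293% to 0.942% epithelial miRNA reads (the miR-200 family), against 3.80% and 0.0353% in their vehicle. The part of these in the result was not tested.

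In the ANIT model, the other cholestatic toxicant, both miRNAs took their largest share at 24 h. miR-143-3p took 3.91%, 3.54%, 1.59%, 5.66% and 0.340% of reads at 3, 6, 12, 24 and 48 h, against 1.69% in the vehicle. Its ratios of 2.32 at 3 h (2.14 to 2.52), 2.94 at 6 h (2.71 to 3.18) and 4.47 at 24 h (4.16 to 4.80) were called higher, and those at 12 and 48 h were not called. At these 3 times 5.93%, 22% and 26.3% of all measured miRNAs were called higher. miR-145-5p had 16, 15, 19, 89 and 3 reads against 12 in the vehicle. It was called higher at 24 h alone, at a ratio of 3.21 (1.75 to 6.45), while its intervals at 3, 6, 12 and 48 h span 1. Against the other vehicles the 24 h call of miR-143-3p held in all but the MDA vehicle, where the ratio was 0.945. That of miR-145-5p held in none of the other four, at 1.35 to 1.86 times.

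In the hepatocellular models both miRNAs stood below their vehicle by TMM ratio at every time, except miR-143-3p at TAA 3 h. The sizes differed at some of these times. With APAP, which injures hepatocytes through a reactive metabolite, miR-143-3p took 1.34%, 0.631%, 0.266% and 0.576% of reads at 3, 6, 12 and 24 h against 2.65% in the vehicle. Its TMM ratios lay between 1.60-fold and 1.90-fold lower at all 4 times, and none was called. miR-145-5p had 21, 17, 8 and 15 reads against 29, stood 4.21-fold below its vehicle at 12 h (1.88 to 10.7) and 3.42-fold below at 24 h (1.78 to 6.87), and was called lower at these times, as were 22.3% and 32.3% of all measured miRNAs. With TAA, another toxicant activated by hepatocyte enzymes, the 3 h library had 2.33 times the vehicle's miR-143-3p (2.12 to 2.55), and the later libraries were 1.56-fold (6 h), 2.39-fold (12 h, 2.08 to 2.74) and 3.89-fold lower (24 h, 3.46 to 4.37), with calls at 3, 12 and 24 h. Of all measured miRNAs, 11.4% were called higher at 3 h, and 32.5% and 35.8% lower at 12 and 24 h. Its shares were 2.11%, 0.391%, 0.171% and 0.139% against 1.90%, so that by total reads the 3 h library was close to its vehicle, at a ratio of 1.11. miR-145-5p had 10, 5, 9 and 5 reads in these libraries against 19 in the TAA vehicle. No TAA library reached 20 reads, so no call is made, and the ratios were 2.37-, 3.55-, 2.58- and 12.5-fold lower with intervals below the vehicle at every time. The TAA 24 h library was the only one in which miR-143-3p was lower against each of the 5 vehicles, and miR-145-5p was so in TAA 24 h and CCl4 Day 5. Over all miRNAs, 7.64% of comparisons were called lower against all 5.

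In the steatosis models miR-145-5p was called lower with CCl4 and miR-143-3p higher on 2 DEX days. With CCl4, miR-143-3p took 1.15%, 0.412% and 0.376% of reads on Days 1, 3 and 5 against 1.25%, and its TMM ratios of 1.09, 0.814 and 0.826 were not called. miR-145-5p had 23, 11 and 1 reads against 76, and was called 2.20-fold lower on Day 1 (1.37 to 3.68) and 2.29-fold lower on Day 3 (1.21 to 4.77). The single read of Day 5 gave a ratio of 0.0832 with a wide interval (0.00208 to 0.477), also called lower, beside 9.09%, 18.9% and 16.7% of all measured miRNAs on the 3 days. With DEX, a glucocorticoid, miR-143-3p took 1.92%, 2.03% and 2.31% on Days 1, 2 and 3, all above the vehicle, with ratios of 1.57, 2.10 (2.00 to 2.21) and 2.02 (1.89 to 2.14). Days 2 and 3 were called higher, just past the threshold, beside 17.6% and 19.8% of all measured miRNAs, and by total reads neither was. miR-145-5p had 28, 29 and 26 reads and was not called on any day. In all, miR-145-5p was called higher in 4 and lower in 5 of the 20 treated libraries of the models in which it was measured (3 and 8 by total reads). Its calls higher were all in the cholestasis models, and its calls lower in the APAP and CCl4 models.

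**Figure D2:**
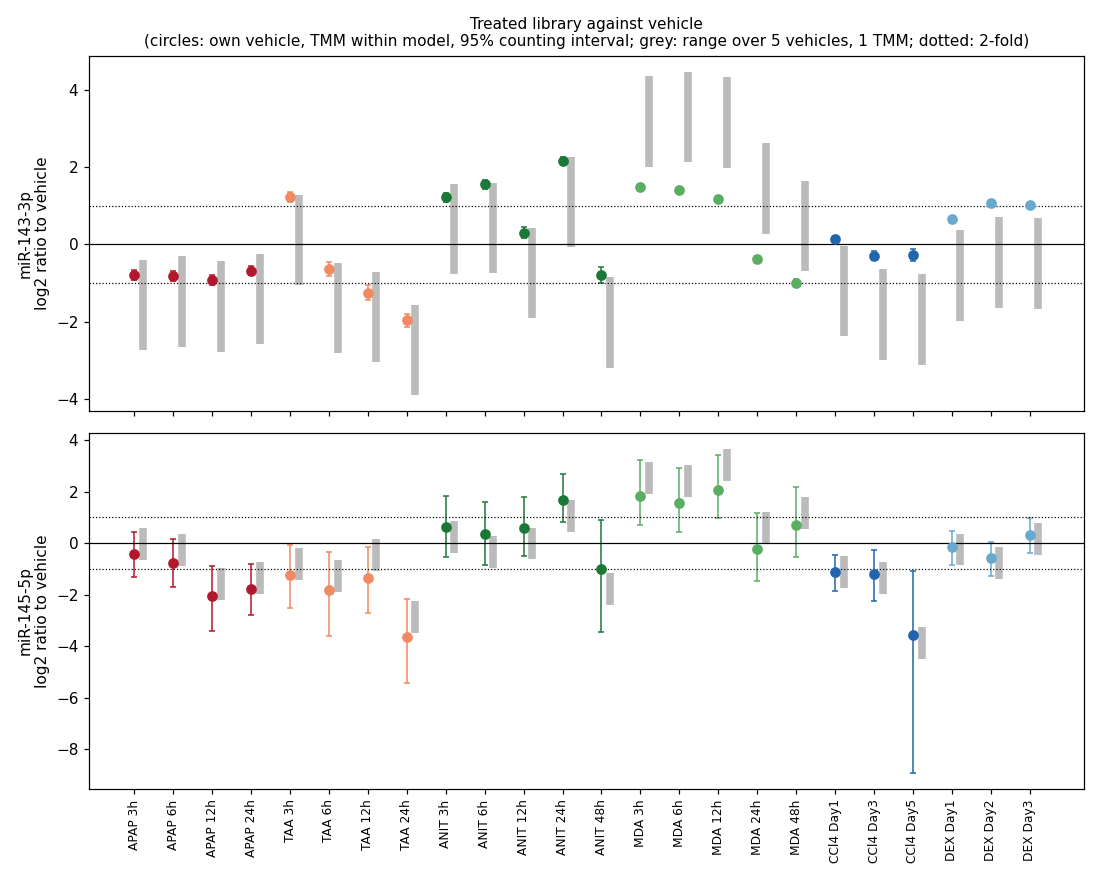
Log2 ratio of each treated library to its own vehicle for miR-143-3p (upper panel) and miR-145-5p (lower panel), TMM within each model, with 95% counting intervals; grey bars give the range over all 5 vehicles with 1 TMM over all libraries, and dotted lines mark 2-fold. MDA 3, 6 and 12 h lie above 2-fold against every vehicle for both miRNAs, and the grey bars of miR-143-3p are longer because of the MDA vehicle.

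To ask what the models share, their libraries were fitted together with edgeR's quasi-likelihood test, the models serving as replicates and the vehicle set as a block. Neither miRNA passed at an adjusted p of 0.05 at any time. At 3 h (4 models) the log2 change was 1.03 ± 0.52 (SE, adjusted p = 0.246) for miR-143-3p and 0.34 ± 0.59 (adjusted p = 0.799) for miR-145-5p. At 6 h the changes were 0.46 ± 0.51 (adjusted p = 0.639) and −0.05 ± 0.51 (adjusted p = 0.984). At 12 h they were 0.04 ± 0.59 and 0.05 ± 0.77 (each at an adjusted p of 0.961). At 24 h or Day 1 (6 models) they were 0.16 ± 0.60 (adjusted p = 0.847) and −0.61 ± 0.71 (adjusted p = 0.562). Among all miRNAs tested, 6.06%, 18.3%, 26.9% and 4.48% passed at 3, 6, 12 and 24 h. At 24 h or Day 1 the ratios of miR-143-3p in single models ran from 3.89-fold lower (TAA) to 4.47-fold higher (ANIT). By total reads the change of miR-143-3p at 12 h was −1.61 with an adjusted p of 0.0472 (edgeR). In that fit 58 of 104 miRNAs passed, 55 of them lower, and the median change over all was −1.78.

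The injury types, with 2 models each, were then compared at 24 h or Day 1. miR-145-5p was lower in the hepatocellular than in the cholestasis models, with a difference in log2 change of −3.68 ± 1.09 (edgeR, adjusted p = 0.00984). The counts behind it are 15 against 29 reads (APAP) and 5 against 19 (TAA) for the hepatocellular models, and 89 against 12 (ANIT) and 30 against 7 (MDA) for the cholestasis models. With TMM within each model it was 3.42- and 12.5-fold lower than vehicle in the former, 3.21-fold higher with ANIT and 1.19-fold lower with MDA. The MDA direction turned with the scaling, since with 1 TMM over all libraries that library was 1.33 times its own vehicle. miR-143-3p differed in the same direction, by −2.52 ± 1.09 (adjusted p = 0.0827), short of the threshold, and passed it with DESeq2 (adjusted p = 0.0313), by total reads (adjusted p = 0.0367) and with no vehicle block (adjusted p = 0.00487). Of all 134 miRNAs tested, 19.4% differed between these types in the main fit, 13.4% in the lower direction. In the other fits named, 34 (DESeq2), 22 (total reads) and 57 (no vehicle block) of the 134 passed. The result for miR-145-5p no longer passed without TAA, ANIT or CCl4, fits in which fewer of all miRNAs passed than in the main fit. It held without APAP, MDA or DEX. Each of these fits leaves 1 model in an injury type. The difference was −2.93 without TAA and −2.86 without ANIT. Without CCl4, which is in neither of the types compared, it was −3.75, so its size did not rest on that library.

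Taken by type, the change of miR-145-5p against vehicle was −2.43 ± 0.78 in the hepatocellular models (edgeR, adjusted p = 0.00515), and it fell there together with many other miRNAs, since 59% of all tested passed in this type and 32.1% fell. Without TAA it was −1.71 (adjusted p = 0.119). It was 1.25 ± 0.77 in the cholestasis models (adjusted p = 0.316) and −0.61 ± 0.82 in the steatosis models (adjusted p = 0.965). miR-143-3p changed by −1.15 ± 0.76 (adjusted p = 0.170), 1.37 ± 0.78 (adjusted p = 0.276) and 0.38 ± 0.92 (adjusted p = 0.965) in the same order, and passed in none. Of all miRNAs tested, 11.2% passed in the cholestasis and 0% in the steatosis models. The differences of the hepatocellular from the steatosis models were −1.54 ± 1.20 (adjusted p = 0.306) for miR-143-3p and −1.82 ± 1.16 (adjusted p = 0.205) for miR-145-5p, where 39.6% of all miRNAs passed. Those of the cholestasis from the steatosis models were 0.98 ± 1.18 (adjusted p = 0.949) and 1.86 ± 1.12 (adjusted p = 0.878), where 0% passed.

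**Figure D3:**
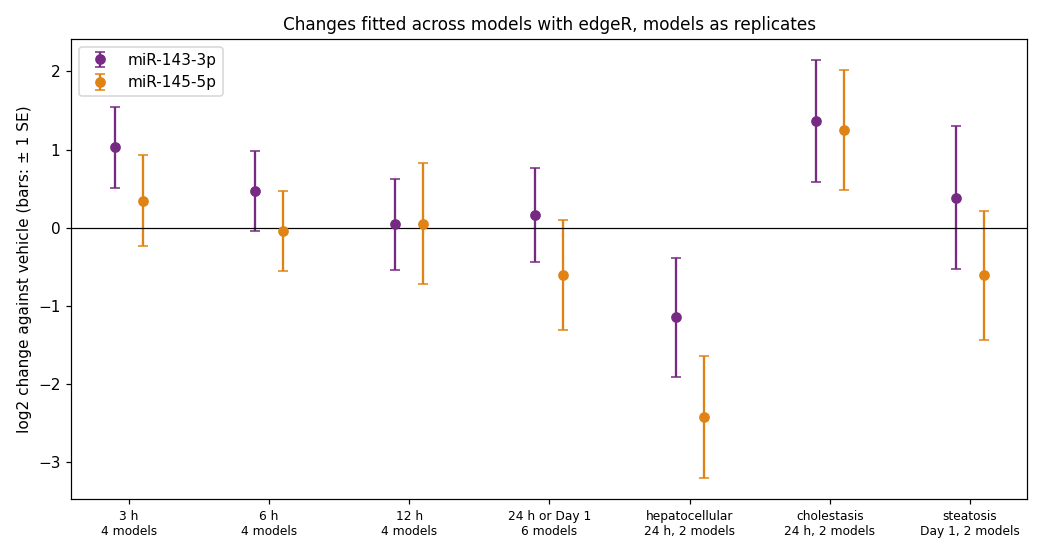
Log2 change against vehicle (± 1 SE) of miR-143-3p and miR-145-5p from edgeR fits across models, at each time and by injury type at 24 h or Day 1. The change of miR-145-5p in the hepatocellular models (−2.43) is the only point shown that passed an adjusted p of 0.05.

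Although cut from 1 transcript, the pair was counted in very unequal numbers. Both counts of a library share its depth, so their ratio needs no scaling, though adapters can ligate to the ends of the 2 sequences with unequal efficiency, so the ratio is compared between libraries and not read as a ratio of molecules. Vehicle libraries held 2.32 (APAP), 3.03 (TAA), 1.41 (ANIT), 0.515 (MDA) and 2.68 (CCl4/DEX) reads of miR-145-5p per 100 reads of miR-143-3p. Treated libraries held 0.270 to 3.00, with a median of 1.06, so the groups overlapped. The ratio was below that of the own vehicle in 16 of 24 treated libraries, and its interval excluded 1 on the low side in 8 of them (APAP 24 h, TAA 3 and 24 h, CCl4 Days 1 and 5, and all 3 DEX days) and on the high side in 1 (MDA 48 h, 3.29 times its vehicle). The largest shortfalls were at CCl4 Day 5 (9.93-fold, 1.73 to 397, from 1 read) and TAA 3 h (5.50-fold, 2.43 to 13.3). At TAA 3 h miR-143-3p stood above its vehicle while miR-145-5p stood below, and on DEX Days 1, 2 and 3 miR-145-5p was at 0.896, 0.663 and 1.23 times its vehicle where miR-143-3p was at 1.57, 2.10 and 2.02 times.

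As a mean log2 ratio, treated libraries lay below vehicles by 0.75 at 24 h or Day 1 (n = 6 against 5, exact permutation p = 0.130). The differences were −0.75 at 3 h (exact permutation p = 0.333), −0.70 at 6 h (exact permutation p = 0.349) and −0.18 at 12 h (exact permutation p = 0.762), with n = 4 against 5. Adjusted over the 4 times, the p-values were 0.466 for the first 3 and 0.762 at 12 h, from exact permutation. Without the MDA vehicle, the difference at 24 h or Day 1 was −1.17 (exact permutation p = 0.0190, unadjusted), so that library decides on which side of 0.05 the test falls. The test does not pair a library with its own vehicle. Against own vehicles, log2 differences at 24 h or Day 1 were −1.07 (APAP), −1.58 (TAA), −0.53 (ANIT), 0.06 (MDA), −1.25 (CCl4) and −0.79 (DEX). These pairs were not tested.

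**Figure D4:**
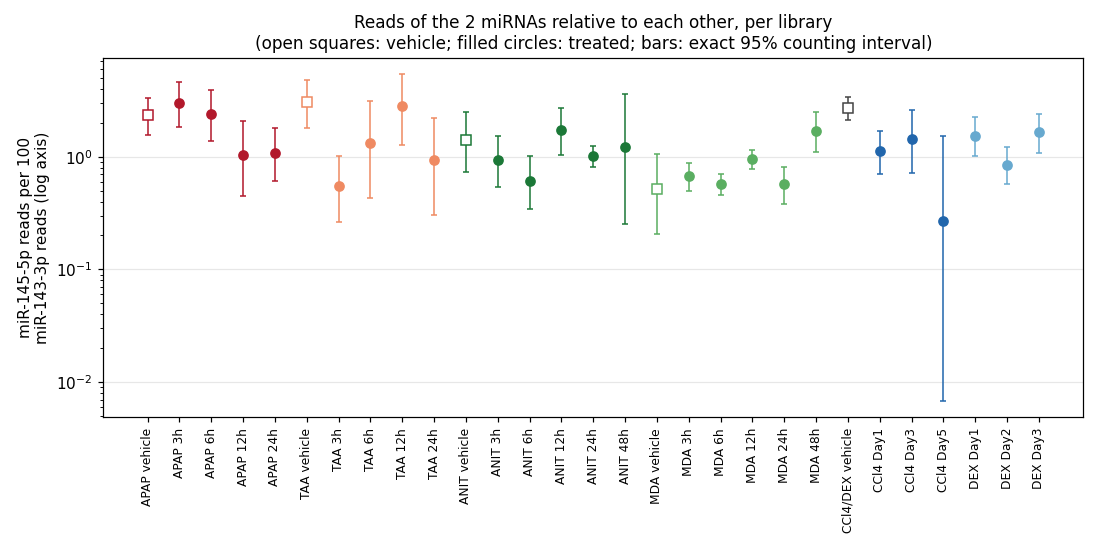
Reads of miR-145-5p per 100 reads of miR-143-3p (log axis) in each library, with exact 95% counting intervals; open squares are vehicle and filled circles treated libraries. The vehicles of APAP, TAA and CCl4/DEX lie at 2.32 to 3.03 and the MDA vehicle at 0.515.

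The opposite arms, which are mostly degraded when the hairpin is cut, were rare at the miR-143 hairpin and common at the miR-145 hairpin. Over all libraries miR-143-5p had 58 of the 78883 reads of its hairpin, or 0.0735% (0.0558% to 0.0950%), and was at 0 in 9 libraries. miR-145-3p had 172 of 968 reads, or 17.8% (15.4% to 20.3%). It outnumbered miR-145-5p in 2 libraries, ANIT 6 h (17 reads against 15) and CCl4 Day 5 (2 against 1). No library had more than 18 reads of miR-145-3p or 8 of miR-143-5p, so neither arm was tested.

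Across the 29 libraries, levels of the pair followed each other, at Spearman rho = 0.821 and Pearson r = 0.858 on log2 CPM (counts scaled by 1 TMM). These are descriptions, since the libraries share vehicles, models and a scale. Without the 6 MDA libraries rho was 0.697 (23 libraries), and on ratios to the own vehicle it was 0.629 (24 libraries). Of 104 other miRNAs that reached 10 reads in 15 or more libraries, each of the pair had the other as its nearest, by rho over all 29 libraries. After miR-145-5p, the nearest to miR-143-3p were miR-99b-5p (0.795), miR-10a-5p (0.743), miR-218a-5p (0.713) and miR-100-5p (0.685). The nearest to miR-145-5p after miR-143-3p were the same 4, in the order miR-100-5p (0.753), miR-218a-5p (0.747), miR-99b-5p (0.745) and miR-10a-5p (0.685). The lowest rho were with miR-148a-5p (−0.613) and the hepatocyte miRNA miR-192-5p (−0.470) for miR-143-3p, and with miR-148a-5p (−0.554) and miR-148a-3p (−0.552) for miR-145-5p. By total reads, miR-145-5p had 2 miRNAs nearer than miR-143-3p, miR-218a-5p (0.872) and miR-99b-5p (0.854), against 0.850. Without the 6 MDA libraries, on the TMM scale, neither of the pair had the other as its nearest. miR-218a-5p (0.756) and miR-10a-5p (0.703) were then nearer to miR-143-3p than miR-145-5p was (0.697). miR-218a-5p (0.797) was also nearer to miR-145-5p than miR-143-3p was.

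**Figure D5:**
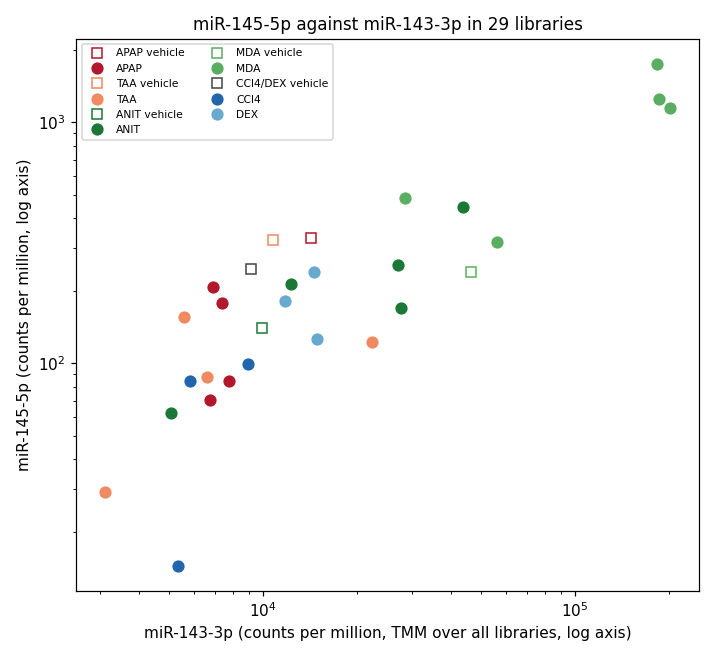
Level of miR-145-5p against miR-143-3p in 29 libraries (CPM, 1 TMM over all libraries, log axes), coloured by model, with open squares for vehicles. The 3 early MDA libraries lie at the upper right and TAA 24 h and CCl4 Day 5 at the lower end (rho = 0.821).

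Other miRNAs known from smooth muscle and mesenchymal cells did not move as a block with the pair. miR-100-5p, near to both of the pair by rho, is among them. Of 20 on the list, 10 to 15 were measured per model or fit, and most are also expressed in liver, platelets or many other tissues. At MDA 3, 6 and 12 h, 2, 1 and 1 of 11 measured were called higher and 0 lower, with medians of 0.10, 0.28 and −0.09 on the log2 scale, beside −0.20, 0.05 and −0.09 over all miRNAs. Of all miRNAs, 16.8%, 18.9% and 20% were called higher at these times and 27.4%, 29.5% and 27.4% lower. At ANIT 24 h 4 of 14 were called higher and 0 lower, with a median of 0.17 beside 0.03, where 26.3% of all miRNAs were called higher and 24.6% lower. In the hepatocellular models at 24 h, where miR-145-5p fell, the edgeR fit gave 6 higher and 3 lower of 14 tested. Their median was 1.54 beside −0.47 over all miRNAs, of which 26.9% rose and 32.1% fell. For the hepatocellular minus cholestasis difference, 2 of 14 were higher and 1 lower. The median was 0.49 beside −0.28 over all miRNAs, of which 5.97% were higher and 13.4% lower.

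The list members with the largest mean change show how mixed it was. miR-22-3p, which is also abundant in liver, was called higher in 13 and lower in 0 of 24 treated libraries, and rose by 5.78 ± 0.93 in the hepatocellular models (edgeR, adjusted p = 4.44e-08). miR-199a-3p, expressed in fibroblasts and stellate cells, was called higher in 1 and lower in 14 of 24, and fell in the hepatocellular models by 3.58 on the log2 scale (SE 0.78, edgeR, adjusted p = 4.58e-05). miR-214-3p, from the same transcript as a miR-199a hairpin, was called lower in 5 and higher in 0 of 11 libraries. miR-125b-5p was called higher in 1 and lower in 1 of 14. The hepatocellular 24 h libraries, in which miR-145-5p fell, also had low shares of endothelial miRNAs (miR-126a arms, 0.0143% to 0.0682% against 0.385% to 0.817% in vehicles), of red cell miRNAs (0.0837% to 0.394% against 3.15% to 6.58%) and of the lymphocyte miRNA miR-150-5p (0.00261% to 0.00707% against 0.374% to 0.690%). Hepatocyte miRNAs took 41.0% to 49.4% there. The part of these shifts in the level of miR-145-5p was not tested.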

How the data were processed

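The deposited tables of the authors hold read counts of mature miRNAs, and a signal normalized by size factors. The submitters' processing notes name DESeq 1.28.0. The sources used here do not give aligner, counter or miRNA release. Counts were used throughout. TMM factors (edgeR 4.0.16, R 4.3.3) came from miRNAs with at least 20 reads in a library of the model. Intervals of ratios are exact conditional binomial intervals, and log2 ratios used a pseudocount of 0.5 read. edgeR's quasi-likelihood fits used a minimum of 10 reads in 4 or more libraries (134 at 24 h or Day 1, 99 at 3 h, 104 at 6 and 12 h), with Benjamini-Hochberg adjustment over all of them, and were tested on simulated data. SE is the absolute log2 change divided by the square root of F. A count of 0 allows up to 3 reads, 0.000783% to 0.0212% of a library. P-values across models measure the spread between single libraries. Alternatives were total reads, the authors' signal, 1 TMM over all libraries, DESeq2 1.42.0, other thresholds, other vehicles and each library left out. The vehicle columns of CCl4 and DEX differ in 36 miRNAs by at most 4 reads and were counted once. Named miRNAs are the pair, their opposite arms, up to 4 of a list by mean absolute log2 ratio and the 5 highest and 2 lowest rho. List members highest in the MDA vehicle are also named. The members and lists were chosen with earlier results of these data known.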

Additional observations from a re-analysis of the deposited data

Results flagged for a closer look

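The share of miR-143-3p in the MDA vehicle library, 9.58%, stood far above the other 4 vehicle libraries. Its gap to the next vehicle was 0.832 of the whole range, over Dixon's 95% critical value of 0.71 for 5 samples. The wide spread of these vehicle values was known when the pair was chosen, so this restates it and is no independent test. Chance alone passes that value in about 1 in 20 groups, and the vehicles differ in solvent and model, so they are not replicates of 1 group. For miR-145-5p no vehicle library stood out in this way.

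The log2 change of miR-145-5p at 24 h differed between the hepatocellular and the cholestasis models by −3.68 (edgeR, adjusted p = 0.00984), a test of the difference between the types itself. It rests on 5 to 89 reads per treated library.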

How the results depend on the processing

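Counts of calls and fitted changes depended on scaling and on the vehicle library. For miR-143-3p, 9 treated libraries were called higher, against 4 by total reads, 1 at a 4-fold threshold and 3 against the MDA vehicle. The 3 called lower became 11 by total reads, 1 with the authors' signal, 10 by reads other than hepatocyte miRNAs (an alternative added after seeing the data), 9 at 1.5-fold, 0 at 4-fold, and 8, 1, 16 and 1 against the APAP, ANIT, MDA and CCl4/DEX vehicles. Among libraries with a call, its log2 ratio against the MDA vehicle turned to −1.05 in TAA 3 h, −0.77 in ANIT 3 h, −0.74 in ANIT 6 h, −0.082 in ANIT 24 h, −1.64 in DEX Day 2 and −1.67 in DEX Day 3. Libraries without a call also turned below the MDA vehicle (ANIT 12 h, CCl4 Day 1 and DEX Day 1). In MDA 48 h it turned to 1.00, 1.41, 1.53 and 1.64 against the APAP, TAA, ANIT and CCl4/DEX vehicles. For miR-145-5p, the 4 called higher became 1 at 4-fold. The 5 called lower, of 20 libraries, became 8 by total reads and 2 at 4-fold. Against the APAP, TAA, ANIT, MDA and CCl4/DEX vehicles, 10, 10, 2, 3 and 9 were lower. These last counts are of 24 libraries, with the TAA libraries included, so they are not directly comparable with the 5. The TAA 12 h log2 ratio of miR-145-5p was 0.16 against the ANIT vehicle. By total reads, fitted log2 changes of miR-143-3p were −1.11 at 24 h or Day 1, −0.62 at 6 h and −1.61 at 12 h. Those of miR-145-5p were −0.12 at 3 h and −1.60 at 12 h. Medians over all miRNAs by total reads were −0.51 at 3 h, −1.17 at 6 h, −1.78 at 12 h and −1.33 at 24 h or Day 1. Also by total reads, the hepatocellular minus steatosis differences were −3.28 and −3.54 (edgeR, adjusted p = 0.0163 and 0.0232), where 50 of 134 miRNAs passed. The cholestasis minus steatosis difference of miR-143-3p was −0.25 and its hepatocellular minus cholestasis difference −3.03. Its hepatocellular change was −2.99 and the cholestasis change of miR-145-5p −0.020. With DESeq2 the hepatocellular minus cholestasis difference of miR-143-3p was −2.57. With no vehicle block it was −3.33. In that setting the cholestasis minus steatosis difference of miR-143-3p was 2.60 (edgeR, adjusted p = 0.0436), where 19 of 134 miRNAs passed. Its hepatocellular change was −1.65 (edgeR, adjusted p = 0.0484), where 99 passed. Its steatosis change was −0.92 and the 6 h change of miR-145-5p 0.50. Leaving out 1 model at a time gave log2 changes of miR-143-3p of −0.18 to 0.56 at 24 h or Day 1, −0.026 to 0.81 at 6 h and −0.51 to 0.42 at 12 h. For miR-145-5p it gave −0.33 to 0.83 at 3 h, −0.71 to 0.37 at 6 h, −0.81 to 0.73 at 12 h, −2.82 to −1.71 in the hepatocellular models and −4.06 to −2.86 for hepatocellular minus cholestasis. At 12 h without ANIT, miR-145-5p was under the read minimum of the fit and has no value. Leaving out 1 library gave log2 differences in the ratio of the pair of −1.17 to −0.55 at 24 h or Day 1 and −0.60 to 0.045 at 12 h, and a vehicle range of miR-143-3p of 2.12- to 7.64-fold, the lowest without the MDA vehicle. The vehicle range of miR-143-3p was 5.05-fold with 1 TMM, and rho on ratios to the own vehicle was 0.629. The causes were not tested. Reads of miR-145-5p, 1 to 111 per library, limit what can be seen for it. No paired analysis was possible by replicate because replicate numbers stand in the labels of ANIT groups alone, and each of these has 1 column. In the main joint fits, the vehicle block did set treated libraries against their own vehicle.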
